A study of Homo sapiens with 6 samples.

Results

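The genes described here belong to the BCL2 family. They are the BH3-only genes BMF, HRK, BCL2L11 and BBC3, the effector gene BAX and the anti-apoptotic gene BCL2. They were chosen by gene name and are 6 of the 4101 genes of the deposited transcriptome table. BCL2 family proteins set the threshold of the mitochondrial pathway of apoptosis. BH3-only proteins sense stress signals such as DNA damage, loss of growth factors or detachment, and bind and neutralize BCL2 and its pro-survival relatives. Once BAX is activated, it permeabilizes the outer mitochondrial membrane and cytochrome c is released, which starts caspase activation.

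RNA was sequenced from SH-SY5Y cells, an established human neuroblastoma line used as a model of dopaminergic neurons, with the genotype given as wild type. The METH-treatment group received 2 mM methamphetamine, a psychostimulant, for 24 h, and the PBS-treatment group received the vehicle for 24 h, although every sample is labelled as day 0. Each group had 3 libraries, described as triplicates of a single line with no statement on separate cultures, so p-values measure only the spread between these libraries, which may be technical. PBS libraries are named 10, 11 and 12 after the columns of the table. The values are reads of a gene per M reads of the library (CPM), without correction for gene length. Their denominators were 85.67 to 110.77 M reads per library. The table holds only genes with an unadjusted p-value under 0.1 in the authors' own comparison, so the genes were already selected on these libraries. Both groups were compared with limma on log2(CPM + 0.1), and an adjusted p-value under 0.1 over the 4101 genes was taken as the threshold.

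Of 10 noradrenergic neuroblastoma markers listed for the line, 2 were in the table, GATA2 and CHGB, and neither was at 0 in any library. The most abundant marker was GATA2 with PBS, at a mean of 441 CPM, and CHGB with METH, at a mean of 459 CPM. Past the threshold, GATA2 was lower with METH and CHGB was higher, but the GATA2 call was lost without METH 1 or METH 2 (limma adjusted p = 0.119 and 0.122) and when adjusted over the 15724 tested genes (limma adjusted p = 0.142). The summed level of both was 644, 681 and 727 CPM in PBS 10, 11 and 12, and 673, 743 and 771 CPM in METH 1, 2 and 3. The other markers of the list, TH and DBH among them, were not analysed here, and neither were the 5 glial markers. Of the 8 mesenchymal markers, 3 were in the table, and none was at 0. VIM had the highest CPM, without correction for length. Per kb of exonic length, the marker TWIST1 was higher, at means of 124 against 72.2 CPM with PBS and 163 against 132 with METH. Of the 3, VIM and SNAI2 were up-regulated past the threshold. Both calls were lost without METH 1 (limma adjusted p = 0.121 and 0.104) and over the tested genes (limma adjusted p = 0.165 and 0.129), and that of VIM also without METH 2 (limma adjusted p = 0.148). The summed level of the 3 was 455, 743 and 679 CPM in the PBS libraries and 1111, 1146 and 794 CPM in the METH libraries. This sum was higher in every METH library than in any PBS library, and its part in the results on the BCL2 family was not tested.

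PBS 10 stood somewhat apart from the other PBS libraries. Over the 3625 genes that averaged 1 CPM or more, its median absolute log2 difference was 0.533 to PBS 11 and 0.464 to PBS 12, against 0.331 between PBS 11 and PBS 12 and 0.185 to 0.399 between METH libraries. It was the lowest PBS library in 47% of these genes, and in 57.5% of those with a higher mean log2 level in the METH-treatment group. Results are therefore also given without PBS 10.

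Of the 6 family genes, 5 were up-regulated in the METH-treatment group past the threshold, BMF, HRK, BCL2L11, BBC3 and BCL2, and none was down-regulated. In the whole table, 33.3% of the genes passed the threshold with a higher level, 35.8% with a lower level and 69.1% in either direction. BAX was the gene not past the threshold. All METH libraries lay above all PBS libraries in 4 of the 6 genes, against 31% of the genes of the table. When p-values were adjusted over the 15724 genes that the authors' adjustment implies were tested, only BMF was past the threshold. In the same adjustment, 7.71% of the genes of the table were past it with a higher level. Genes outside the table had no values here and were not fitted, so this adjustment only counts them, as ranking behind all genes of the table. The median log2 fold change was 0.71 over the 6 genes and 0.11 over all genes of the table. Since the genes were chosen with earlier results known, these shares are a description. In bulk RNA, fewer cells of a type and less RNA per cell cannot be told apart.

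**Figure D1:**
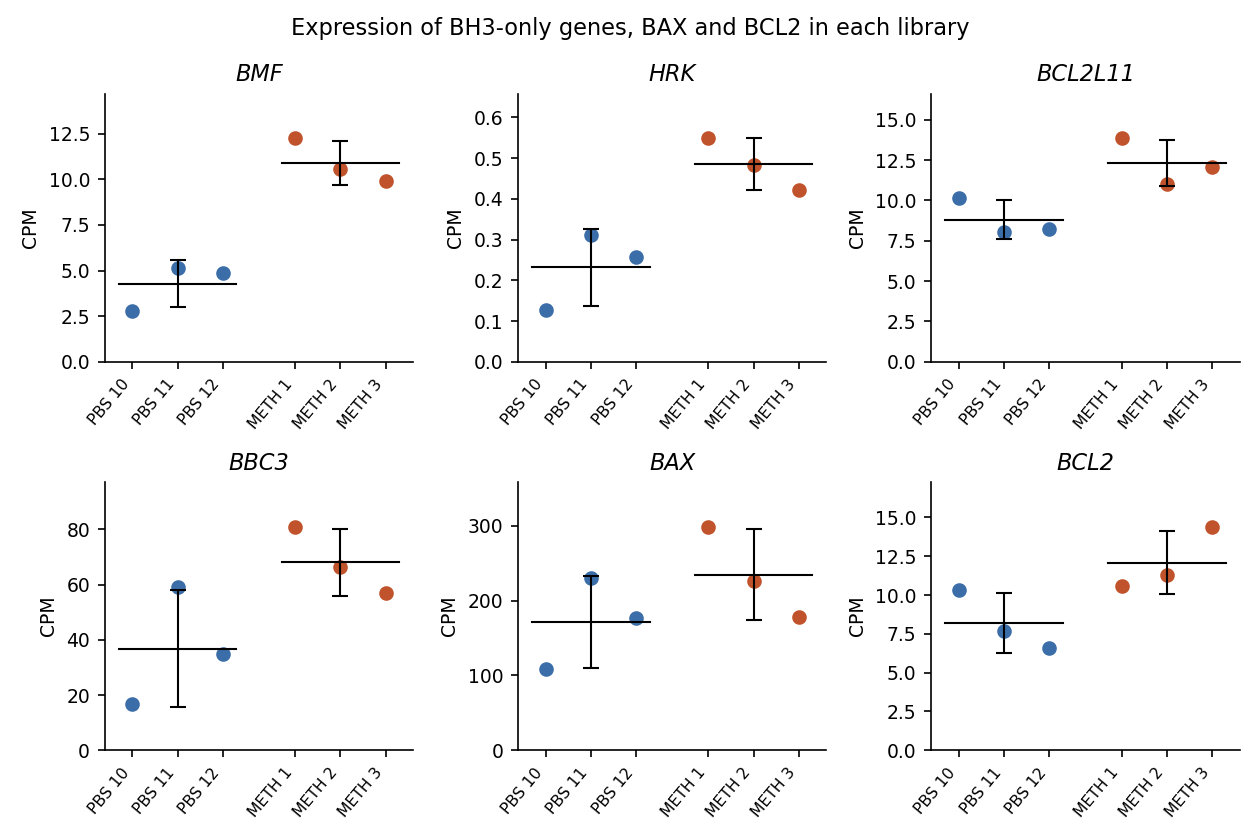
CPM of each gene in each library, with blue points for PBS, red points for METH, and lines and bars for the mean and SD of each group (n = 3). BMF lies at 2.81 to 5.16 CPM with PBS and 9.92 to 12.3 CPM with METH, whereas the BAX values of both groups overlap.

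BMF encodes a BH3-only protein held at the myosin motor complex in healthy cells and known for its role in anoikis. BMF (ENSG00000104081) lies on the minus strand of chr15:40087890-40108892 in GRCh38. Its expression was 2.81, 5.16 and 4.86 CPM in PBS 10, 11 and 12, and 12.3, 10.6 and 9.92 CPM in METH 1, 2 and 3. The lowest METH library was thus well above the highest PBS library, and METH libraries differed little among themselves. BMF averaged 4.28 ± 1.28 CPM in the PBS-treatment group and 10.9 ± 1.21 CPM in the METH-treatment group (SD, n = 3 each). The log2 fold change was 1.37 (standard error 0.282, 95% interval 0.74 to 2.01, limma adjusted p = 0.0137), and the limma adjusted p over the tested genes was 0.0525. An exact 2-sided permutation test gave p = 0.1, the smallest that 3 libraries against 3 allow. From 311 to 453 reads were counted with PBS and from 959 to 1061 with METH. BMF passed the threshold with each library left out in turn, with limma adjusted p-values from 0.0127 to 0.0545. Ranked by log2 fold change, BMF was number 219 of the 4101 genes. The antisense gene BMF-AS1 overlaps BMF, and whether counting used the strand is not given in the sources used here, so reads of both cannot be told apart.

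HRK encodes a BH3-only protein expressed mainly in the nervous system and induced in neurons deprived of growth factor. HRK (ENSG00000135116) lies on the minus strand of chr12:116856144-116881441. It was at 0.126, 0.311 and 0.258 CPM in PBS 10, 11 and 12, and at 0.549, 0.484 and 0.421 CPM in METH 1, 2 and 3. Every METH library was above every PBS library, and PBS 10 was the lowest. The gene rose from a mean of 0.232 ± 0.0953 CPM to 0.485 ± 0.064 CPM (SD, n = 3 each). The log2 fold change was 0.86 (standard error 0.359, 95% interval 0.05 to 1.67, limma adjusted p = 0.0748). Few reads were counted on it, 14 to 27 with PBS and 44 to 47 with METH. The size of the change therefore depended on the value added before taking log2, being 1.12 with 0.01 added and 0.27 with 1 added. Leaving out PBS 10, PBS 12, METH 1 or METH 2 ended the call (limma adjusted p = 0.113 to 0.185), whereas without PBS 11 or METH 3 it held. DESeq2 on the recovered reads gave an adjusted p of 0.127.

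BCL2L11 encodes BIM, a BH3-only protein that binds all pro-survival relatives of BCL2, can activate BAX directly, and is transcribed under the control of FOXO factors when growth factors are withdrawn. BCL2L11 (ENSG00000153094) lies on the plus strand of chr2:111119378-111168447. It was at 10.2, 8.03 and 8.25 CPM in PBS 10, 11 and 12, and at 13.9, 11 and 12.1 CPM in METH 1, 2 and 3. The groups did not overlap, but METH 2 was only slightly above PBS 10, the highest PBS library. The rise was from a mean of 8.82 ± 1.18 to 12.3 ± 1.43 CPM (SD, n = 3 each), a ratio of 1.4, and the 95% interval of the log2 fold change was -0.01 to 0.97 (limma adjusted p = 0.0873). Without PBS 10 the log2 fold change was 0.59 (limma adjusted p = 0.0651), and leaving out any of the other libraries ended the call (limma adjusted p = 0.14 to 0.244). The call was also lost when libraries were scaled to the same median ratio (limma adjusted p = 0.108) or with TMM factors in edgeR (adjusted p = 0.137). The long non-coding gene MIR4435-2HG overlaps BCL2L11 on the other strand, so reads of both cannot be told apart.

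Promoter sequences of all 6 genes were found among those of RefSeq (GRCh38.p14), each with 250 bases before and 50 bases after a start site, and BMF had 2 of them. Because factors of BH3-only genes were among the genes that changed, both strands were searched for the FOXO site GTAAACA, the AP-1 site TGANTCA, the E-box CACGTG, the E2F site TTTNGCGC and the p53 response element. The motifs do not share letters with each other in the matches found. A FOXO site was found in BCL2L11, and 3.42% of all 35116 promoters hold at least 1. The sequence around it is shown because FOXO factors are known regulators of BCL2L11 and FOXO4 was up-regulated, as described with the regulators. It lies at chr2:111120671-111120717 on the plus strand, before the RefSeq start and outside annotated exons, but between exons within the annotated span of the gene. Capitals mark the motif.
BCL2L11 promoter: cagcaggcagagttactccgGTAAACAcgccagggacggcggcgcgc
A match is a description of letters and shows neither binding nor a cause. BMF, HRK and BCL2 had no match to any of the 5 motifs, which says only that these letters are not in the windows searched.

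BBC3 encodes PUMA, a BH3-only protein that binds all pro-survival relatives of BCL2 and is a well-known target of p53. BBC3 (ENSG00000105327) lies on the minus strand of chr19:47220822-47232766. Its promoter held 1 AP-1 site and 1 E-box, motifs that at least once occur in 7.71% and 7.26% of all promoters. The p53 response element was searched as an exact match to both half-sites of its consensus, up to 13 bases apart. It was found in 0.0285% of all promoters, and the E2F site in 1.79%. Neither had a match in BBC3, BAX or any other of the 6 genes. Inexact p53 elements and elements outside the windows were not searched, so this does not show that BBC3 or BAX lacks one. The stretches around the AP-1 site and the E-box lie at chr19:47232767-47232800 and chr19:47232874-47232917, both on the minus strand and upstream of the annotated gene. They are shown because JUN, a component of AP-1, and MYC, a factor that binds E-boxes, changed in opposite directions. Capitals mark the motifs.
BBC3 AP-1 site: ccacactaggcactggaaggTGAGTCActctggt
BBC3 E-box: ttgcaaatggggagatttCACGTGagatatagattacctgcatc
BBC3 was at 16.7, 59 and 34.7 CPM in PBS 10, 11 and 12, and at 81, 66.4 and 57 CPM in METH 1, 2 and 3. The PBS libraries were widely spread, PBS 11 being 3.52-fold above PBS 10, and METH 3 was slightly below PBS 11, so the groups overlapped. BBC3 averaged 36.8 ± 21.2 CPM in the PBS-treatment group and 68.1 ± 12.1 CPM in the METH-treatment group (SD, n = 3 each). The log2 fold change was 1.05 (standard error 0.398, 95% interval 0.15 to 1.95, limma adjusted p = 0.0608). An exact 2-sided permutation test gave p = 0.2. PBS 10 and PBS 11 each moved the result. Without PBS 10 the log2 fold change was 0.57 (limma adjusted p = 0.104), and without PBS 11 it was 1.48 (limma adjusted p = 0.0177). The call was also lost without PBS 12, METH 1 or METH 2 (limma adjusted p = 0.126 to 0.151).

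BBC3 took most of the reads on the 4 BH3-only genes, without correction for length. Summed over BMF, HRK, BCL2L11 and BBC3, the level was 29.9, 72.5 and 48.1 CPM in PBS 10, 11 and 12, and 108, 88.5 and 79.4 CPM in METH 1, 2 and 3. The sum did not overlap between the groups, although METH 3 was close to PBS 11. The share of BBC3 in it was between 56.1% in PBS 10 and 81.4% in PBS 11, so the sum mainly followed BBC3.

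BAX encodes the effector that forms pores in the outer mitochondrial membrane, and is also a target of p53. BAX (ENSG00000087088) lies on the plus strand of chr19:48954815-48961798. Its promoter held 4 E-boxes, a number reached by 0.0142% of all promoters, and 2 of the 4 lie upstream of the annotated gene and its exons. The stretch with these 2 lies at chr19:48954717-48954807 on the plus strand and is shown because no other gene of the family had more than 1 E-box. Capitals mark the E-boxes.
BAX promoter: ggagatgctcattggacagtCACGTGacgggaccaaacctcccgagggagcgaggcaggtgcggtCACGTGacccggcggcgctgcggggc
BAX was at 108, 231 and 177 CPM in PBS 10, 11 and 12, and at 299, 226 and 178 CPM in METH 1, 2 and 3. METH 1 was the highest library and PBS 10 the lowest, but METH 2 and METH 3 lay within the range of the PBS libraries. The log2 fold change was 0.48 (standard error 0.316, 95% interval -0.23 to 1.20, limma adjusted p = 0.178), and an exact 2-sided permutation test gave p = 0.4. BAX had 11963 reads or more in every library, and what limited this comparison was not tested. The interval includes no change as well as a more than doubled level. Leaving out PBS 11 raised the log2 fold change to 0.73 and brought BAX past the threshold (limma adjusted p = 0.0735), and without PBS 10 it was 0.18 (limma adjusted p = 0.538).

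BCL2 encodes the pro-survival protein that gave the family its name and that sequesters BH3-only proteins and BAX. BCL2 (ENSG00000171791) lies on the minus strand of chr18:63123346-63320128. It was at 10.3, 7.71 and 6.58 CPM in PBS 10, 11 and 12, and at 10.6, 11.3 and 14.4 CPM in METH 1, 2 and 3. The anti-apoptotic gene was thus up-regulated together with the BH3-only genes, and the groups did not overlap, but METH 1 was only slightly above PBS 10. BCL2 averaged 8.2 ± 1.91 CPM in the PBS-treatment group and 12.1 ± 2.04 CPM in the METH-treatment group (SD, n = 3 each). The log2 fold change was 0.57 (standard error 0.249, 95% interval 0.01 to 1.13, limma adjusted p = 0.082). Without PBS 10 the log2 fold change was 0.74 (limma adjusted p = 0.043), and leaving out any of the other libraries ended the call (limma adjusted p = 0.12 to 0.197). As with BCL2L11, the call was lost with libraries scaled to the same median ratio (limma adjusted p = 0.102) and with TMM factors in edgeR (adjusted p = 0.136), the direction being the same. Genes annotated inside BCL2 on both strands, AC022726.1 and AC022726.2, could share its reads.

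**Figure D2:**
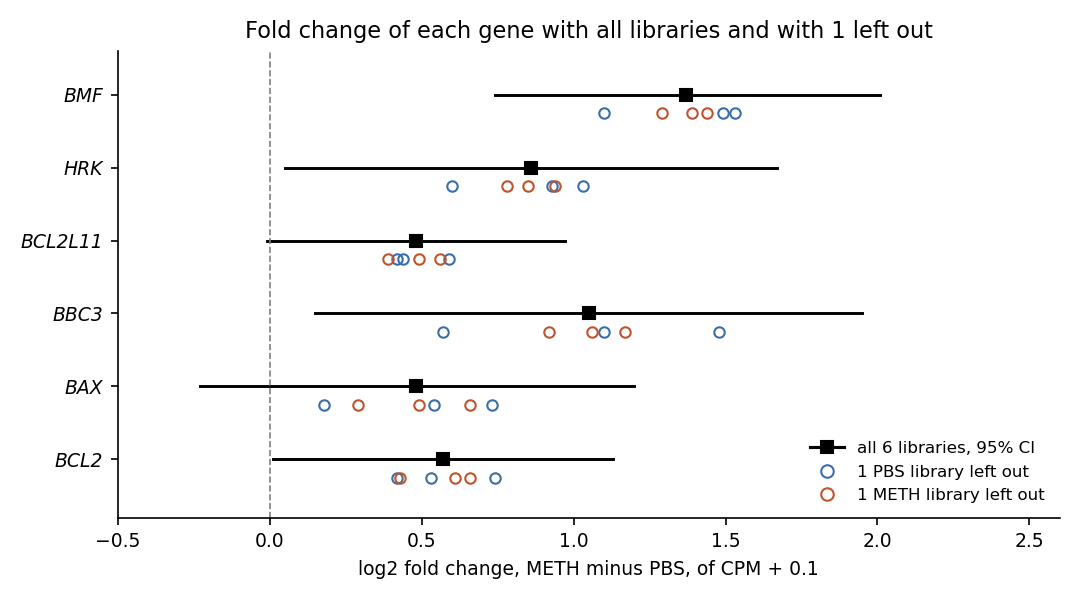
Log2 fold change (METH minus PBS, on CPM + 0.1) of each gene with all 6 libraries (squares, bars for the 95% interval) and with 1 PBS library (blue circles) or 1 METH library (red circles) left out. The values for BMF range from 1.10 to 1.53 and those for BBC3 from 0.57 to 1.48 when a library is left out, and no value changes sign.

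**Figure D3:**
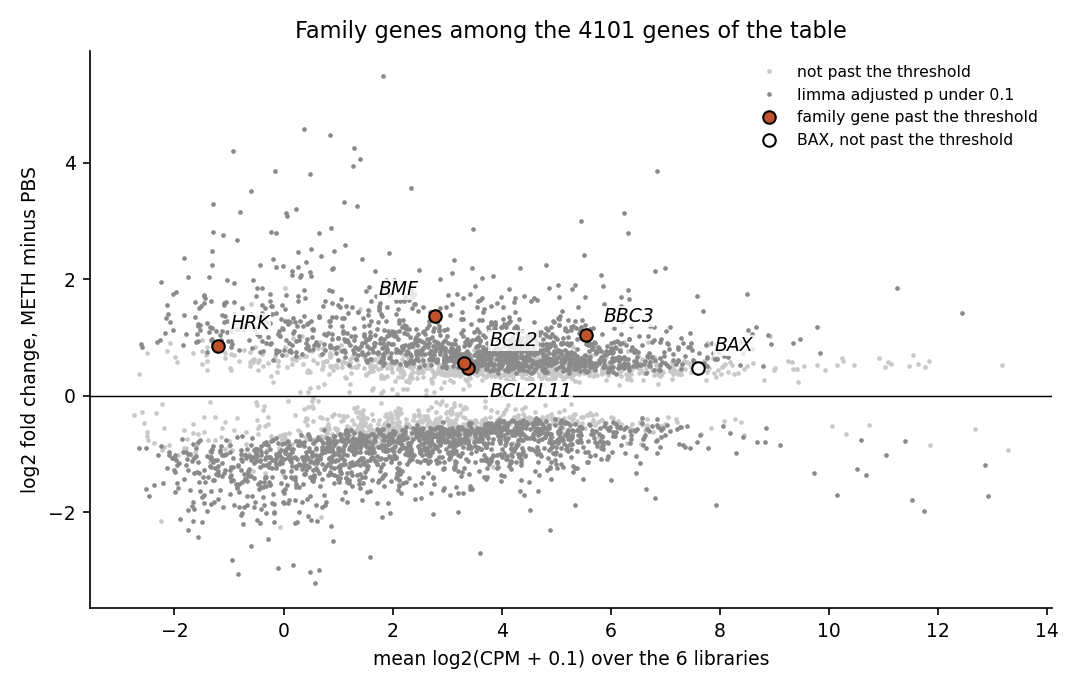
Log2 fold change (METH minus PBS) against mean log2(CPM + 0.1) over the 6 libraries for the 4101 genes of the table, dark grey past the limma threshold and light grey not, with the family genes marked. HRK lies near the low end of CPM and BAX (open circle) near the high end, with no correction for length, and BMF has the largest log2 fold change of the 6, at 1.37.

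For comparison between genes, CPM was divided by the exonic length of each gene. This is the length of all its annotated exons together, which need not be that of the RNA expressed. Among the family genes with PBS, BAX was the most abundant, at 66.5 ± 23.8 CPM per kb, followed by BBC3 at 11.6 ± 6.67 CPM per kb (SD, n = 3). BCL2L11 came next at 1.32 ± 0.177 CPM per kb with PBS, above BMF at 0.785 ± 0.235 and BCL2 at 0.697 ± 0.162 CPM per kb. BMF and BCL2 did not differ beyond their spread, and HRK was the lowest at 0.0338 ± 0.0139 CPM per kb. With METH, BMF reached 2 ± 0.222 CPM per kb and BCL2L11 1.85 ± 0.215 CPM per kb, levels that did not differ beyond their spread. BMF was below BCL2L11 in every PBS library and slightly above it in every METH library. The values were 2.25 against 2.08, 1.94 against 1.65 and 1.82 against 1.81 CPM per kb in METH 1, 2 and 3. The order with METH depended on the length used. Without that division BMF was also below BCL2L11 in every METH library, at 12.3 against 13.9, 10.6 against 11 and 9.92 against 12.1 CPM. BCL2 was at 1.03 ± 0.173 CPM per kb with METH, below BMF and BCL2L11 in every METH library. Without the division BCL2 was below both in METH 1, at 10.6 CPM, and above both in METH 2 and METH 3, at 11.3 and 14.4 CPM. BAX and BBC3 remained the highest with METH, at 90.6 ± 23.5 and 21.4 ± 3.8 CPM per kb, and HRK the lowest at 0.0707 ± 0.00934 CPM per kb.

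The balance of pro-apoptotic genes and BCL2 was described as the difference of log2(CPM + 0.1) within each library, with no test. BAX minus BCL2 was 3.38, 4.89 and 4.73 in PBS 10, 11 and 12, and 4.81, 4.31 and 3.62 in METH 1, 2 and 3. The groups overlapped widely, with a difference between the means of -0.08. With a library left out it lay between -0.56 and 0.23, so its sign depended on single libraries. BMF minus BCL2 was -1.84, -0.57 and -0.43 in the PBS libraries and 0.21, -0.10 and -0.53 in the METH libraries. METH 3 lay within the range of the PBS libraries, and the means differed by 0.81, or by 0.36 without PBS 10. The difference between the group means was 0.48 for BBC3 minus BCL2, 0.29 for HRK minus BCL2 and -0.09 for BCL2L11 minus BCL2. With each library left out, an alternative chosen after seeing the data, BBC3 minus BCL2 ranged from -0.17 (without PBS 10) to 0.94 and HRK minus BCL2 from -0.14 (without PBS 10) to 0.51. BCL2L11 minus BCL2 ranged from -0.27 to 0.06. Only BMF minus BCL2 kept its sign among the 5 whichever library was left out, and in all 5 the METH and PBS libraries overlapped.

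**Figure D4:**
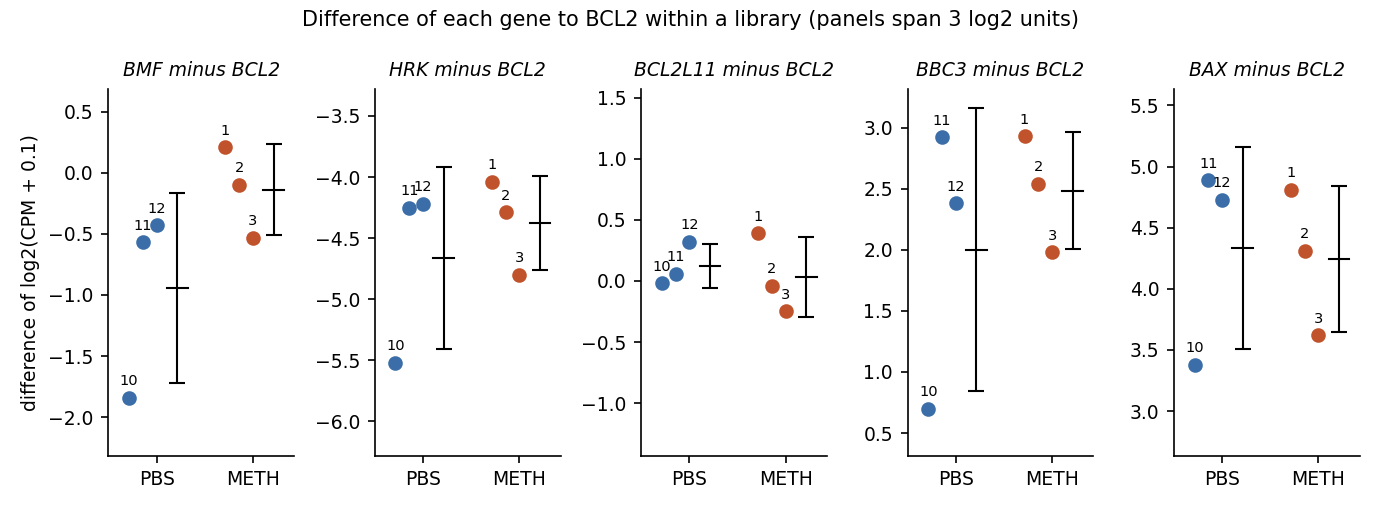
Difference of log2(CPM + 0.1) between each gene and BCL2 in each library (points, with the library number above), with the mean and SD of each group (n = 3) at the side. BAX minus BCL2 is lowest in PBS 10, at 3.38, and METH 3, at 3.62, and the groups overlap in each panel.

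The family genes differed in their order over the libraries. In BMF, HRK, BBC3 and BAX, PBS 10 was the lowest and PBS 11 the highest PBS library, and METH 1 was the highest and METH 3 the lowest METH library. In BCL2L11 and BCL2, PBS 10 was instead the highest PBS library. Among the METH libraries, BCL2L11 was highest in METH 1, like those 4 genes, and BCL2 was lowest there and highest of all in METH 3. By the root mean square difference of centred log2 values over the 6 libraries, BCL2L11 and BCL2 were the nearest pair, at 0.219, followed by BAX and HRK at 0.235 and BMF and HRK at 0.262. BBC3 and BCL2 were the farthest apart, at 0.764. Genes of the same order were not always nearer, BAX and BMF being 0.472 apart, against 0.459 for BAX and BCL2L11 and 0.422 for HRK and BCL2L11. The order seen in BMF, HRK, BBC3 and BAX was common in the table, being that of 20% of the genes that averaged 1 CPM or more and of 30.9% of those that were also higher with METH. METH 3, the lowest METH library in these 4 genes, had 192855.7 CPM on the genes of the table, against 229751.2 to 243342.9 CPM in the other libraries, and what set it apart was not tested. Without PBS 10, the PBS library that stood farthest from the others, 3 of the 6 family genes were up-regulated past the threshold, BMF, BCL2L11 and BCL2, against 24.8% of the genes of the table in the same fit.

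Genes with the nearest library profiles were sought among those that averaged 1 CPM or more. BMF was nearest to GOLGA7B and SIX4, with root mean square log2 differences of 0.114 and 0.116. For HRK the nearest were AK5 and GNG11, at 0.0656 and 0.0674. BCL2L11 was nearest to RWDD1 and ANKRD10, at 0.0812 and 0.0825. The neighbours were selected as the smallest of these differences, so their size is a description. BBC3 was nearest to SLC22A18 and BRI3, at 0.0828 and 0.0982. BAX had the closest neighbours, MED8 and C17orf49, at 0.046 and 0.0558. For BCL2 they were RNF169 and PON2, at 0.0626 and 0.0676. A shared function of these genes was not tested.

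Of 103 other genes listed for apoptosis and its regulation, 29 were in the table, and the others were not analysed here. Of the 29, 11 were up-regulated and 7 down-regulated past the threshold, and 11 were not past it, with a median log2 fold change of 0.51. In the whole table, 33.3% of the genes were up-regulated and 35.8% down-regulated past the threshold. Adjusted over the tested genes, 3 of the 29 were up-regulated and 2 down-regulated, against 7.71% and 7.49% of the genes of the table. None of the 5 other pro-survival relatives of BCL2 was in the table. Of the 6 other effector and BH3-only genes, BOK, a relative of BAX, was the 1 present. It was at 0.578, 2.33 and 1.29 CPM in PBS 10, 11 and 12, and at 0.409, 0.616 and 0.58 CPM in METH 1, 2 and 3. BOK was down-regulated past the threshold, although METH 2 and METH 3 were not below PBS 10 (log2 fold change -1.07, limma adjusted p = 0.079). Its call was lost in each fit with a library left out other than that without PBS 10 (limma adjusted p = 0.103 to 0.197), and without PBS 11 the log2 fold change was -0.63. BECN1, an autophagy gene whose protein carries a BH3 domain and binds BCL2, rose from 28.7 ± 1.99 to 43.2 ± 1.31 CPM (SD, n = 3 each), at limma adjusted p = 0.0366. The BECN1 call was lost without METH 1 or METH 2 (limma adjusted p = 0.11 and 0.122) and over the tested genes (limma adjusted p = 0.14). TMBIM6, a membrane protein known as BAX inhibitor, was not past the threshold, its log2 fold change being 0.37 (limma adjusted p = 0.134).

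Of the listed caspases, nucleases, inhibitor of apoptosis proteins and death receptors, few were in the table. ENDOG, a mitochondrial nuclease, was down-regulated, from 48.3 ± 21.8 to 27.4 ± 7.41 CPM (SD, n = 3 each; limma adjusted p = 0.0876), with overlapping groups. Its log2 fold change was -0.76, or -0.42 without PBS 12, and the call was lost without any single library other than PBS 10 (limma adjusted p = 0.113 to 0.258) and by limma without a trend (adjusted p = 0.11). For CASP2, an initiator caspase, the log2 fold change was -0.45, not past the threshold (limma adjusted p = 0.125). It was past the threshold without PBS 11 (-0.69, limma adjusted p = 0.034) and with TMM factors in edgeR (-0.57, adjusted p = 0.084), and was -0.29 without PBS 10. BIRC5, which encodes survivin, an inhibitor of apoptosis protein that also acts in mitosis, fell from 94.1 ± 32.9 to 48.2 ± 15.9 CPM (SD, n = 3 each; limma adjusted p = 0.043). The BIRC5 call was lost without PBS 12 or METH 2 (limma adjusted p = 0.125 and 0.104) and over the tested genes (limma adjusted p = 0.165). NGFR, the p75 neurotrophin receptor, a death receptor of neurons, rose, with 1.02, 7.24 and 2.88 CPM in PBS 10, 11 and 12 and 13.4, 8.32 and 7.95 CPM in METH 1, 2 and 3. Its groups did not overlap, but PBS 11 was close to METH 3 (log2 fold change 1.74, limma adjusted p = 0.0451). Its log2 fold change was 1.05 without PBS 10 and 2.41 without PBS 11, and the call was lost without PBS 12 or METH 1 (limma adjusted p = 0.111 and 0.122).

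Among 12 transcription factors known to regulate BH3-only genes, 7 were in the table, of which 3 rose, 3 fell and 1 was not past the threshold, beside the 33.3% and 35.8% of all genes of the table. JUN, a component of AP-1 activated by JNK in stressed neurons, was at 32.2, 102 and 47 CPM in PBS 10, 11 and 12, and at 367, 260 and 140 CPM in METH 1, 2 and 3. Its lowest METH library was above its highest PBS library (log2 fold change 2.14, limma adjusted p = 0.0154). FOXO4 rose from 5.11 ± 1.19 to 9.7 ± 1.82 CPM (SD, n = 3 each; limma adjusted p = 0.0311), and FOXO1 from 0.196 ± 0.0597 to 0.392 ± 0.0175 CPM (limma adjusted p = 0.0846). Both are forkhead factors held inactive by growth factor signalling, and FOXO1 rests on only 11 to 42 reads per library. The FOXO1 call was lost with 1 added before taking log2 (limma adjusted p = 0.104), with TMM factors in edgeR (adjusted p = 0.123), with DESeq2 (adjusted p = 0.163) and without any single library other than PBS 10 (limma adjusted p = 0.114 to 0.189). MYC, a growth regulator, was at 54.8, 18.8 and 54.3 CPM in the PBS libraries and at 9.58, 10.4 and 16.4 CPM in the METH libraries. It fell in every METH library below every PBS library, with PBS 11 closest to the METH libraries (log2 fold change -1.69, limma adjusted p = 0.0219). E2F1 fell by 0.92 on the log2 scale (limma adjusted p = 0.0359) and TP73, a relative of p53, by 0.98 (limma adjusted p = 0.0288). MYCN was not past the threshold (limma adjusted p = 0.495), nor were MAP2K7 (log2 fold change 0.58, adjusted p = 0.16) and MAP3K5 (log2 fold change 0.51, adjusted p = 0.532), the 2 of 6 listed JNK pathway kinases in the table. MAP2K7 had a log2 fold change of 0.19 without PBS 10, and of 0.93 and past the threshold without PBS 11 (limma adjusted p = 0.0479).

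Because BBC3 and BAX are targets of p53, 21 other p53 target genes were listed, and 13 were in the table. Of these, 6 were up-regulated, 1 was down-regulated and 6 were not past the threshold, with a median log2 fold change of 0.60, beside the 33.3% and 35.8% of all genes of the table. Adjusted over the tested genes, 2 were up-regulated and 1 was down-regulated, beside 7.71% and 7.49% of the table. BTG2, an antiproliferative gene, was at 16.2, 23.4 and 16.1 CPM in PBS 10, 11 and 12, and at 72.4, 67.8 and 42.3 CPM in METH 1, 2 and 3. Its groups were far apart, and it had the largest change of the list (log2 fold change 1.69, limma adjusted p = 0.0071). GADD45A, a growth arrest gene, rose from 49.5 ± 18.2 to 117 ± 35.8 CPM (SD, n = 3 each; limma adjusted p = 0.0224). CDKN1A, the cell cycle inhibitor p21, was at 162, 428 and 274 CPM in the PBS libraries and at 596, 510 and 561 CPM in the METH libraries (limma adjusted p = 0.0411). Like BBC3 and BAX, it was lowest in PBS 10 and, among the PBS libraries, highest in PBS 11. CCNG1, PLK3 and ZMAT3 were the others past the threshold, with log2 fold changes of 0.91, 1.07 and 0.69 (limma adjusted p = 0.0338, 0.052 and 0.0983). The groups of PLK3 and ZMAT3 overlapped. Without PBS 10 the log2 fold change was 0.66 for PLK3 and 0.70 for CDKN1A. The ZMAT3 call was lost with 1 added before taking log2, by limma without a trend, with libraries scaled to the same median ratio and with TMM factors in edgeR (adjusted p = 0.102 to 0.116). Without PBS 12 or METH 3 its log2 fold change was 0.47 or 0.45, with the call lost as well (limma adjusted p = 0.265 and 0.25). The call was also lost without PBS 11 or METH 2 (limma adjusted p = 0.115 and 0.231). TP53I3, which encodes a quinone oxidoreductase, fell against the direction of these genes, from 40.8 ± 9.67 to 21.1 ± 2.52 CPM (SD, n = 3 each; limma adjusted p = 0.0236). Of the 18 apoptosis and regulator genes past the threshold, BTG2, CCNG1, GADD45A, JUN, MYC, TP53I3 and TP73 were past it whichever library was left out. The other 11 lost the call without at least 1 library, 9 without METH 2, 9 without PBS 12, 7 without METH 1, 4 without METH 3, 4 without PBS 11 and none without PBS 10. Of those not past the threshold, CASP2, TMBIM6, MAP2K7, DDB2, SPATA18 and TIGAR were past it without PBS 11, and RRM2B without PBS 10. With all libraries, RRM2B, DDB2, SPATA18, TIGAR and PPM1D had log2 fold changes from 0.35 to 0.60 and POLH one of -0.27, none past the threshold. With 1 library left out, these ranged from 0.20 to 0.90 for RRM2B, 0.24 to 0.70 for DDB2 and 0.18 to 1.06 for SPATA18. The ranges were 0.21 to 0.61 for TIGAR, 0.21 to 0.50 for PPM1D and -0.38 to -0.14 for POLH.

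**Figure D5:**
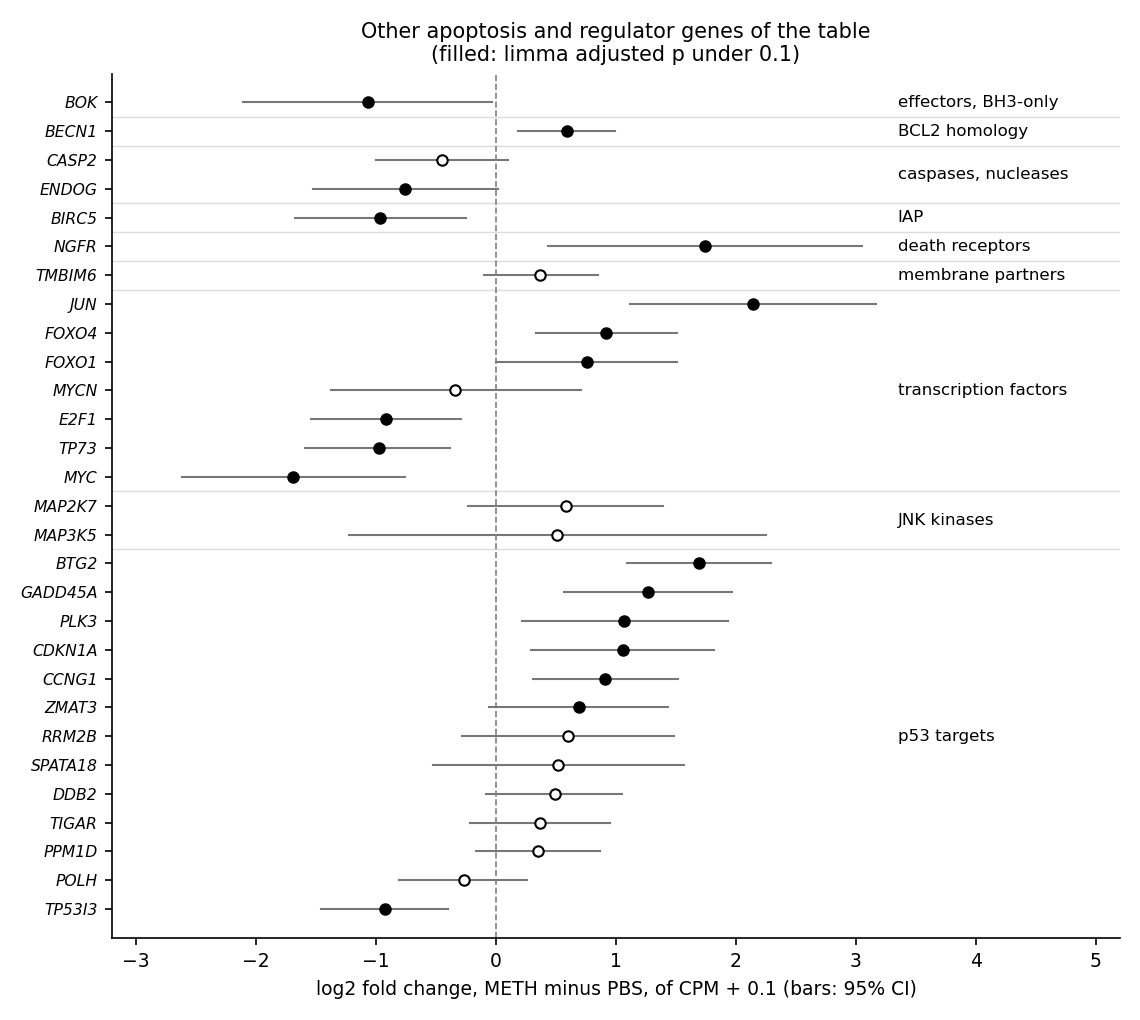
Log2 fold change (METH minus PBS, on CPM + 0.1) of the 29 other listed genes in the table, grouped by role, with bars for the 95% interval and filled points for a limma adjusted p under 0.1. JUN has the largest rise, at 2.14, and MYC the largest fall, at -1.69.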

How the data were processed

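The authors sequenced RNA on the HiSeq platform and compared the groups with DESeq2. The aligner, counting tool, genome build and annotation are not given in the sources used here. The deposited expression values are headed FPKM, but 100% of the low values in each library were whole multiples of 1 step, whatever the gene, so they were used as CPM and whole reads were recovered from them. Low values were those under 3 CPM. Whole meant within 0.02 reads, beyond the error from rounding the values to 3 decimals. The deposited table also holds the authors' p-values, fold changes and group means. The p-values were used only to find how the table was selected and how many genes were tested (15724). Reads on the 4101 genes numbered 20027066 to 25449520 per library, and no pair of libraries was identical (0 of 15).

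Differences between METH and PBS were tested with limma 3.58.1 (in R 4.3.3, with a trend) on log2(CPM + 0.1) over all genes, with Benjamini-Hochberg adjustment. The fit was planned for values under the FPKM heading and applied to CPM. Single genes were also compared by an exact permutation test. As alternatives, 1 or 0.01 was added in place of 0.1, genes under a mean of 1 CPM were left out, and the trend was dropped. Others were scaling to a common median ratio, a threshold of 0.05, adjustment over the tested genes, each library left out, and edgeR (version 4.0.16; with and without TMM factors) and DESeq2 (version 1.42.0) on the recovered reads. The fits were tested on simulated data without a selection of genes by p-value, which checked the code and not the calls given here. On the recovered reads edgeR called 1248 genes higher and 1482 lower, and DESeq2 called 1340 and 1533. Named genes are the 6 genes, all listed genes in the table and the 2 nearest profiles of each. Some listed markers are not reported here. The genes and lists were chosen with earlier results of these data known. Positions and exonic lengths came from GENCODE release 29 (GRCh38), which holds 4093 of the 4101 identifiers, and promoters from RefSeq (GRCh38.p14). Python 3.11.15, numpy 2.4.6, pandas 2.3.3 and matplotlib 3.10.9 were used.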

Additional observations from a re-analysis of the deposited data

How the results depend on the processing

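The log2 fold change of each of the 6 family genes was positive under every alternative. BMF was past the threshold in 16 of 16 alternatives, BBC3 in 10, BCL2L11 and BCL2 in 7 each, HRK in 8 of 15 (it has no value with a filter at 1 CPM) and BAX in 1. The number of family genes past the threshold, 5, was 3 with libraries scaled to the same median ratio (with 1361 genes of the table higher and 1567 lower), 3 by edgeR with TMM factors (1163 and 1637), 1 at a threshold of 0.05 and 1 (BMF) when adjusted over the tested genes by limma. At both of the latter together it was 0, where 4 had an unadjusted limma p under 0.05 and edgeR and DESeq2 on the table called 5 and 4 at 0.1. With a library left out it lay between 1 and 4: 1 without METH 1, METH 2 or PBS 12, 3 without METH 3 or PBS 10, and 4 without PBS 11. Genes of the table higher with METH, 1366, numbered 316 adjusted over the tested genes, 696 at a threshold of 0.05 and 412 to 1551 with a library left out; those lower, 1467, numbered 307, 783 and 563 to 1368. With a library left out, the fewest were found without METH 2, and counts also fell by more than 1.5 times without METH 1 (491 and 628) and PBS 12 (747 and 854). The direction changed for MYCN without METH 2 (log2 fold change 0.13; range over the libraries left out -0.80 to 0.13) and for MAP3K5 without METH 1 (-0.53; range -0.53 to 1.20), neither past the threshold. Adjusting over more genes lowers the counts by construction, and the cause of the other changes was not tested. Another scaling moved the median log2 fold change by -0.03 (median ratio) or -0.07 (TMM). No paired analysis was possible because the PBS columns are numbered 10 to 12 and share no number with the METH columns. HRK (14 to 47) and FOXO1 (11 to 42) had few reads per library, and the part of depth in their results was not tested.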

Other observations

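MAP3K5, which encodes the kinase ASK1 upstream of JNK, was at 3.77 CPM in METH 1 (323 reads), against 0.253 and 0.467 CPM in METH 2 and METH 3 and 0.822, 0.484 and 0.397 CPM in PBS 10, 11 and 12. A single METH library thus stood above all the others, and the gene was not past the limma threshold (adjusted p = 0.532).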
